A study of Homo sapiens with 6 samples.

Results

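Ephrins, semaphorins, slits, netrins and their receptors form the guidance gene families, and they were followed here in bile duct carcinoma cells that overexpress STUB1. Members were found by gene symbol in the expression table. They were the Eph receptors, ephrins, class 3 to 7 semaphorins, plexins, neuropilins, slits, Robo receptors, netrins and UNC5 receptors. The table held 69 such genes among 23569. The families were chosen with earlier results of these data known, so comparisons of members with all genes are descriptions. RNA was sequenced from TFK1, an established line from an extrahepatic bile duct carcinoma, in 6 libraries. In 3 libraries (oeNC) the cells carried a lentiviral negative control, and in the other 3 (oeSTUB1) a lentivirus that overexpresses STUB1, a ubiquitin ligase that works with chaperones. Both groups were selected with puromycin, 1 stable population each as far as the study tells, and received no further treatment. The labels do not say whether the replicates came from separate cultures, so the p-values measure only the spread between these libraries.

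Guidance cues were first described in the developing nervous system, where they attract or repel growing axons, and the same families control adhesion, migration and boundary formation in epithelia, vessels and tumours. Ephrins sit on the cell surface, A-class ephrins by a lipid anchor and B-class ephrins by a membrane-spanning segment, and bind Eph receptor tyrosine kinases on neighbouring cells. Semaphorins signal through plexins, with neuropilins as co-receptors for most secreted class 3 semaphorins, slits bind Robo receptors, and netrins bind receptors that include the UNC5 family.

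STUB1 itself was measured at 32.9, 33.0 and 30.9 FPKM (fragments scaled to gene length and library total) in oeNC and at 61.4, 75.0 and 61.9 FPKM in oeSTUB1. All 3 oeSTUB1 libraries lay above all oeNC libraries, the mean was 2.05-fold higher and the log2 fold change was 1.03 ± 0.097 (SE, adjusted p = 0.00064). Leaving out each library in turn gave 0.93 to 1.08. Here and below, log2 fold changes are oeSTUB1 over oeNC on log2(FPKM + 0.1), and adjusted p-values come from limma with Benjamini-Hochberg adjustment over the 15353 genes whose mean FPKM reached 0.1. Biliary keratins were abundant, with KRT7 between 482 and 872 FPKM, whereas KRT19, a defining bile duct keratin, lay between 0.374 and 0.529 FPKM in oeNC and between 2.51 and 3.41 FPKM in oeSTUB1. Library totals lay between 33106564 and 36744521 fragments. The library oeSTUB1 replicate 2 stood apart from the other oeSTUB1 libraries, as chi-square divided by degrees of freedom came to 76.7 and 82.6 with them, against 3.48 to 10.4 for every other replicate pair, and its difference followed gene length. Results are therefore also given without it.

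Of the 69 guidance genes, 53 passed the filter on low values and 18 of these (34.0%) passed the test, 10 higher and 8 lower in oeSTUB1. Over all tested genes, 13.6% passed, 7.01% higher and 6.59% lower. Because the families were chosen with earlier results known, these shares are set side by side as description only. The higher genes were the receptors EPHA5, EPHB2, EPHA4 and NRP2 and the ligands EFNA1, EFNB2, EFNB3, SEMA3A, SEMA3F and SLIT3. The lower genes were the receptors EPHB6, PLXNC1 and PLXND1 and the ligands EFNA5, EFNB1, SEMA4C, SEMA4G and NTN1. With an absolute log2 fold change over 1 as well, 7 genes were higher and 3 lower, where the background was 5.2% in all, 2.79% higher and 2.4% lower. Without oeSTUB1 replicate 2, 25 guidance genes (47.2%) passed, including all 18, against 26.8% of all genes. EFNB2 and EFNB3 passed the filter only through oeSTUB1 and SLIT1 only through oeNC, and without them 8 genes were higher and 8 lower. EFNB2 and EFNB3 are counted in the 34.0% and among the 7 higher genes past the fold threshold. Both figures therefore include genes that the filter admitted only through the group where they were high. In these bulk libraries fewer cells that express a gene and less RNA per cell cannot be told apart.

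**Figure D1:**
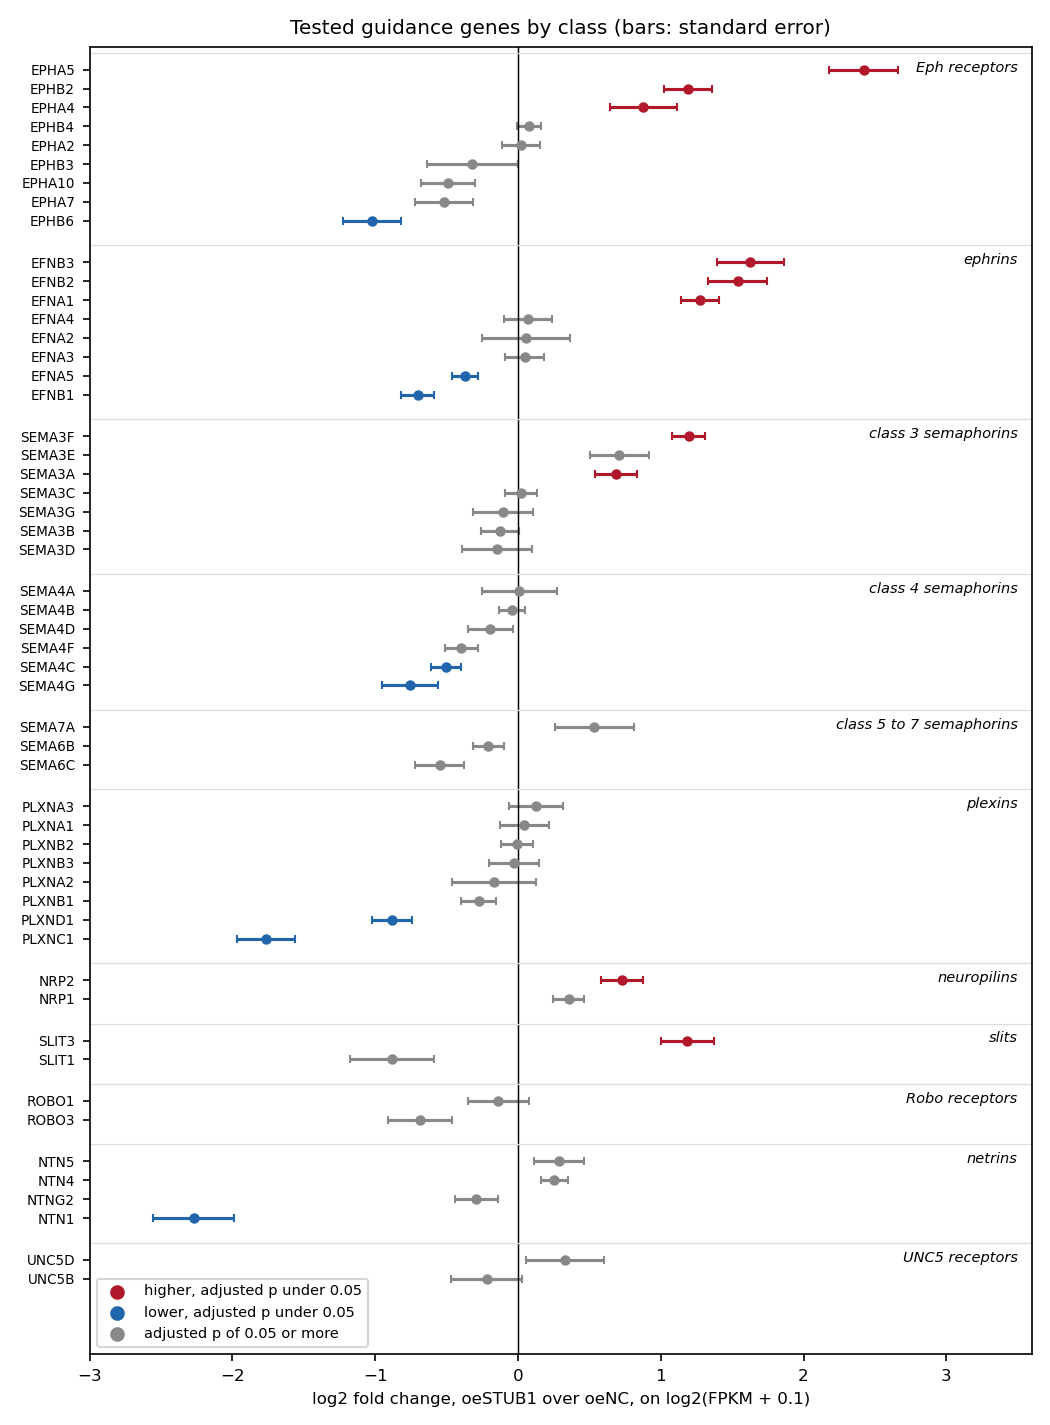
Log2 fold change of each of the 53 tested guidance genes, oeSTUB1 over oeNC on log2(FPKM + 0.1), grouped by class, with bars for the standard error and 3 libraries in each group. Red genes were higher and blue genes lower at an adjusted p under 0.05, and the range runs from -2.27 for NTN1 to 2.42 for EPHA5.

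The direction was not shared across the set. The median log2 fold change of the 53 genes was -0.03, beside 0.02 over all tested genes, and the median of its absolute value was 0.36, beside 0.21. Groups did not overlap for 31 of the 53 genes (58.5%), against 38.8% of all tested genes. The 31 include EFNB2, EFNB3 and SLIT1, which the filter admitted only through the group where they were high. For a single gene, 3 libraries against 3 allow a two-sided exact permutation p of 0.1 at the lowest. It is reached only where the groups do not overlap, so the same 31 genes reached it and it adds nothing further. Of 30 ligands tested, 6 were higher and 5 lower, and of 23 receptors tested, 4 were higher and 3 lower. The summed level of all 69 genes lay between 370 and 386 FPKM in oeNC and between 360 and 426 FPKM in oeSTUB1, so the groups overlapped.

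**Figure D2:**
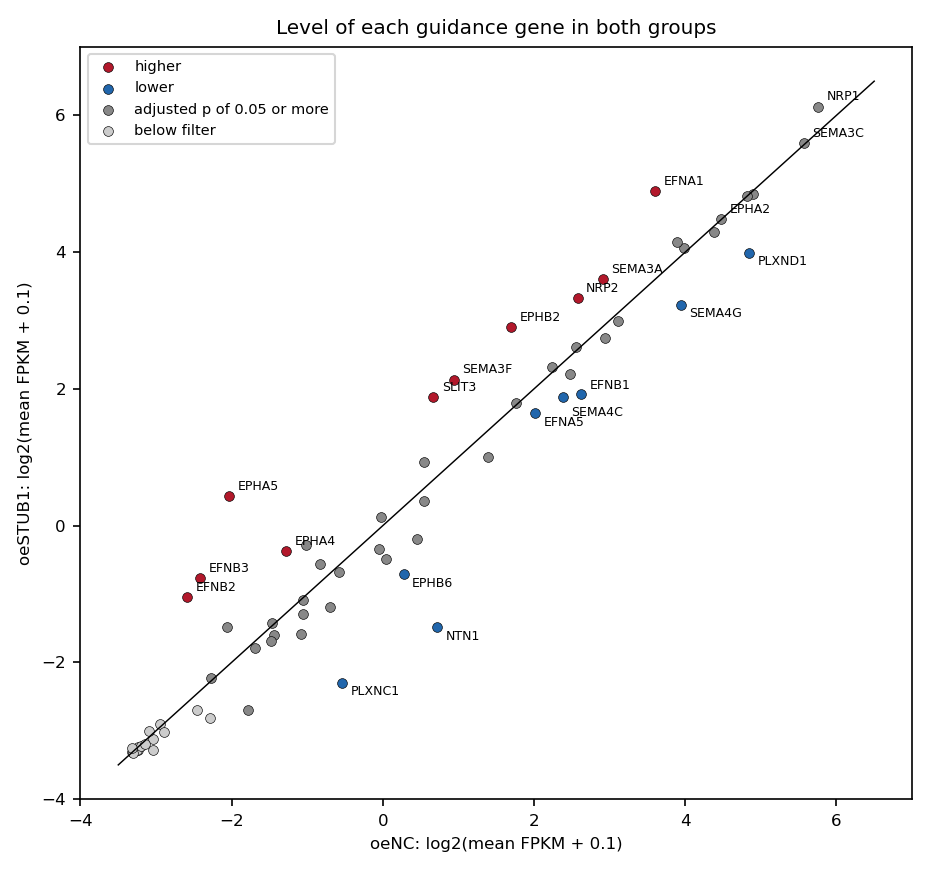
Mean level of each of the 69 guidance genes in oeNC (horizontal axis) and oeSTUB1 (vertical axis), as log2(mean FPKM + 0.1) over 3 libraries, with the line of equal level. Of the abundant genes NRP1, SEMA3C and EPHA2 lie near the line while PLXND1 and EFNA1 lie off it, and EPHA5, EFNB2, EFNB3, NTN1 and PLXNC1 lie farthest from it.

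The starts of 4 of these genes are printed because they belong to a receptor and a ligand that rose by a large factor (EPHA5, EFNB2), to a secreted semaphorin that rose (SEMA3F), and to the B-class ephrin that fell while its relatives rose (EFNB1). Each is the stretch just before the RefSeq start of the gene, in the direction of transcription on GRCh38.p14, with CG dinucleotides in capitals. EPHA5 is read from chr4:65670490-65670739 on the minus strand, EFNB2 from chr13:106535663-106535912 on the minus strand, SEMA3F from chr3:50154808-50155057 on the plus strand and EFNB1 from chrX:68828771-68829020 on the plus strand.
EPHA5: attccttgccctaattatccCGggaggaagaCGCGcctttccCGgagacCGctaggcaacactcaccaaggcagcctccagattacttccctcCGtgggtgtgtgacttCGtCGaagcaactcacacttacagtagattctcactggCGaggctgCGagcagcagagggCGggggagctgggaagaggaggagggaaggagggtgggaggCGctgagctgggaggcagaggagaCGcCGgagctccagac
EFNB2: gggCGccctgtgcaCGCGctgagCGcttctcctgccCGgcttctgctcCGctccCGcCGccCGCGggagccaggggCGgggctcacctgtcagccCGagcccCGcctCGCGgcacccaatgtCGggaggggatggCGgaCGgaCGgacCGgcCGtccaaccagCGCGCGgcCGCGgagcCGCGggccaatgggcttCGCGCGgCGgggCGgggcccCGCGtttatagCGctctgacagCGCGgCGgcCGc
SEMA3F: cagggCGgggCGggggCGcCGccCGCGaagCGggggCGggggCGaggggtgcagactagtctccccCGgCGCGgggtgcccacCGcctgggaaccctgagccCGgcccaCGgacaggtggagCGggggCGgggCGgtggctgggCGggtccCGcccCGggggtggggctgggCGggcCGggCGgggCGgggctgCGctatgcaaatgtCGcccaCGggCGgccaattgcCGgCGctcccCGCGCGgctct
EFNB1: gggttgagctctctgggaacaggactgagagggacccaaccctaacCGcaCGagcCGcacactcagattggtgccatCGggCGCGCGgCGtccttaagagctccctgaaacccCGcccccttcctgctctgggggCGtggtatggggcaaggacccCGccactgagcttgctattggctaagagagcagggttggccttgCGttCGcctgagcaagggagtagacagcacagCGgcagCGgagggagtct

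The EFNB2 stretch held 40 CG dinucleotides and the SEMA3F stretch 34, against 15 in EFNB1 and 14 in EPHA5. The median was 17 over the 58 guidance genes with an entry in the RefSeq promoter table, 21 over the tested genes with an entry and 11 over all 27305 entries. For the 8 higher genes with an entry the median was 26.5, with a range of 9 to 42, and for the 7 lower genes it was 19, with a range of 3 to 41. The lowest counts of the lower set, EPHB6 (3) and PLXNC1 (8), come from windows inside the gene. These begin at chr7:142862506 and chr12:94262369, while the genes start at 142855061 and 94148723 in GENCODE. The SEMA4C window of the lower set, with 30 CG dinucleotides, also lies inside its gene. It spans chr2:96870081-96870330, while the gene starts at 96870757 on the minus strand in GENCODE. In the higher set, the EFNA1 and NRP2 windows also lie past the GENCODE start, but close to it. Motifs were searched on both strands. The GC box GGGCGG, which itself contains a CG, occurred 12 times before SEMA3F, 3 times before EFNB2 and once each before EPHA5 and EFNB1, and 72.4% of guidance genes, 65.5% of tested genes and 42.3% of all entries held at least 1. The E-box CAGGTG was present in 15.5% of guidance genes, 16.1% of tested genes and 17.5% of all entries. The TATA box TATAAA was present in 1.72%, 5.56% and 11.1%, and the guidance gene that held it was EFNB2, where it lies on the strand opposite to the one printed. These matches describe letters in the window and were not tested as sites.

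Among the Eph receptors, EPHA5, EPHB2 and EPHA4 rose and EPHB6 fell, while the most abundant members, EPHA2 and EPHB4, did not pass the test. EPHA5 (chr4:65319563-65670495, minus strand, GENCODE release 29 on GRCh38), an A-class receptor tyrosine kinase best known from neurons, was at 0.137, 0.158 and 0.138 FPKM in oeNC and at 1.57, 0.823 and 1.35 FPKM in oeSTUB1. The groups did not overlap, and oeSTUB1 replicate 2 was the lowest of its group. Its mean was 8.65-fold higher, and the log2 fold change was 2.42 ± 0.24 (SE, adjusted p = 0.00081). These values rest on 47 to 54 fragments in oeNC libraries and 269 to 534 in oeSTUB1 libraries. EPHB2 (chr1:22710839-22921500, plus strand), a B-class receptor that sorts epithelial cells along the intestinal crypt, was at 3.47, 3.32 and 2.65 FPKM in oeNC and at 9.04, 6.97 and 6.05 FPKM in oeSTUB1. All oeSTUB1 libraries were higher, by 2.34-fold in the mean and 1.19 ± 0.17 on the log2 scale (adjusted p = 0.0036).

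EPHA4 (chr2:221418027-221574202, minus strand), a receptor that binds ephrins of both classes, was at 0.30, 0.361 and 0.279 FPKM in oeNC and at 0.735, 0.455 and 0.834 FPKM in oeSTUB1. The groups did not overlap, though oeSTUB1 replicate 2 lay nearest to oeNC, and the log2 fold change was 0.88 ± 0.23 (adjusted p = 0.045). The call was lost in 7 of 15 alternatives, among them the fits without any 1 oeNC library and without oeSTUB1 replicate 1 or 3, with an adjusted p of up to 0.14. EPHB6 (chr7:142855061-142871094, plus strand), an Eph receptor whose kinase domain lacks catalytic activity, was at 1.09, 1.12 and 1.13 FPKM in oeNC and at 0.590, 0.344 and 0.595 FPKM in oeSTUB1. The mean was 2.18-fold lower in oeSTUB1, and the log2 fold change was -1.02 ± 0.20 (adjusted p = 0.016). This call was lost when any 1 oeNC library was left out, with an adjusted p of up to 0.069.

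EPHA2, an A-class receptor abundant in many carcinomas and epithelia, was at 20.1, 19.4 and 27.2 FPKM in oeNC and at 24.0, 21.5 and 21.4 FPKM in oeSTUB1. The groups overlapped, and the log2 fold change was 0.02 ± 0.14 (adjusted p = 0.94), a value whose sign depended on the scaling. EPHB4, the receptor of EFNB2 on venous endothelium, was at 15.8, 15.0 and 16.5 FPKM in oeNC and at 15.4, 17.0 and 17.6 FPKM in oeSTUB1, also with overlap (log2 fold change 0.08 ± 0.085, adjusted p = 0.59). EPHA2 and EPHB4 together made up most of the Eph receptor level in every library, EPHA2 with 43.7% to 55.2% of the summed FPKM. EPHB2 supplied 5.38% to 8.20% of that sum in oeNC and 12.3% to 17.3% in oeSTUB1. The 3 other tested receptors, EPHA10, EPHB3 and EPHA7, had log2 fold changes between -0.52 and -0.32 and did not pass. EPHA6, EPHA3, EPHB1, EPHA1 and EPHA8 were below the filter.

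A transcript opposite to EPHA5 was also counted, and it was chosen for mention after its values were seen. EPHA5-AS1 (chr4:65669961-65698029, plus strand) is a long noncoding gene that begins inside the first exon of EPHA5 and runs the other way, so the EPHA5 stretch printed above lies within it. It had 2, 3 and 2 fragments in oeNC and 24, 33 and 23 in oeSTUB1, with no overlap between groups. The sources used here do not say whether counting used strand, and without strand, reads of the gene and of its antisense partner cannot be told apart where they overlap.

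Of the 8 ephrins, all tested, EFNA1, EFNB2 and EFNB3 rose and EFNB1 and EFNA5 fell, EFNB2 and EFNB3 having passed the filter only through oeSTUB1. EFNA1 (chr1:155127460-155134857, plus strand), the A-class ligand of EPHA2, was at 12.6, 11.4 and 12.1 FPKM in oeNC and at 27.4, 35.8 and 25.4 FPKM in oeSTUB1. Each oeSTUB1 library was above every oeNC library, and replicate 2 was the highest. The mean was 2.46-fold higher, and the log2 fold change was 1.27 ± 0.13 (adjusted p = 0.00088). EFNA1 is short, at 1552 recovered bases. Over all tested genes of 1 to 2 kb, replicate 2 lay above the other oeSTUB1 libraries by a median of 0.32 on the log2 scale. Leaving out each library in turn gave EFNA1 log2 fold changes of 1.13 to 1.37. EFNA1 lies on chromosome 1 beside EFNA4 and EFNA3, A-class ligands whose log2 fold changes were 0.07 ± 0.17 (adjusted p = 0.82) and 0.05 ± 0.14 (adjusted p = 0.85). EFNA4 ranged from 4.30 to 5.11 FPKM in oeNC and from 3.82 to 6.12 FPKM in oeSTUB1, and EFNA3 from 2.79 to 3.91 FPKM and from 3.21 to 3.45 FPKM. The groups overlapped for both neighbours, over which GENCODE also annotates a joint gene, AL691442.1, that the table does not list. The log2 ratio of EFNA1 to EFNA3 went from 1.86 ± 0.21 (SD, n = 3) in oeNC to 3.08 ± 0.32 in oeSTUB1, and that to EFNA4 from 1.37 ± 0.20 to 2.58 ± 0.22.

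EFNA5 (chr5:107376889-107670895, minus strand), another A-class ligand, was at 3.99, 3.76 and 4.06 FPKM in oeNC and at 3.04, 3.00 and 3.02 FPKM in oeSTUB1. The oeSTUB1 libraries were close together and all below oeNC, the mean was 1.30-fold lower, and the log2 fold change was -0.37 ± 0.092 (adjusted p = 0.036). That call was lost in 7 of 16 alternatives, among them the fits without any 1 oeNC library and without oeSTUB1 replicate 1 or 3 (adjusted p of up to 0.15). EFNA2 did not pass (0.06 ± 0.31, adjusted p = 0.92). Summed over the 5 genes, A-class ephrins came to 24.1 ± 0.69 FPKM in oeNC (SD, n = 3) and to 41.1 ± 6.4 FPKM in oeSTUB1. EFNA1 supplied 48.7% to 51.6% of this sum in oeNC and 69.0% to 73.9% in oeSTUB1.

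The B-class ephrins moved in opposite directions. EFNB1 (chrX:68828997-68842147, plus strand), which guides boundary formation in skeletal and neural tissue, was at 6.17, 6.32 and 5.75 FPKM in oeNC and at 3.62, 3.31 and 4.2 FPKM in oeSTUB1. It fell in all oeSTUB1 libraries, by 1.64-fold in the mean, and the log2 fold change was -0.70 ± 0.11 (adjusted p = 0.0061). EFNB2 (chr13:106489731-106535662, minus strand), known as a marker of arterial endothelium and an EPHB4 ligand, was at 0.0617, 0.0797 and 0.0564 FPKM in oeNC and at 0.427, 0.351 and 0.370 FPKM in oeSTUB1. The levels were low in both groups but did not overlap, with 30 to 40 fragments per oeNC library and 168 to 213 per oeSTUB1 library. The mean was 5.8-fold higher, and the log2 fold change was 1.54 ± 0.21 (adjusted p = 0.0029), or 2.53 by limma-voom on the recovered fragments. EFNB3 (chr17:7705202-7711378, plus strand), a repellent ligand at the spinal cord midline, was at 0.0627, 0.0987 and 0.102 FPKM in oeNC and at 0.451, 0.385 and 0.619 FPKM in oeSTUB1. These rest on 7 to 12 fragments against 41 to 68, and the mean was 5.53-fold higher (log2 fold change 1.63 ± 0.23, adjusted p = 0.0038).

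EFNB1 supplied 97.3% to 98.0% of the summed B-class level in oeNC and 80.5% to 81.8% in oeSTUB1, while the sum came to 6.23 ± 0.30 FPKM in oeNC (SD, n = 3) and to 4.58 ± 0.58 FPKM in oeSTUB1. EFNB2 and EFNB3 each came to between 7.13% and 11.9% of it in oeSTUB1. The recovered gene length of EFNB2 was 2.88 times the merged exon length in GENCODE, so its FPKM level against other genes depends on the gene model. Endothelial markers, which bear on EFNB2 as a vascular gene, summed to 0.662 to 0.698 FPKM in oeNC and 1.30 to 1.34 FPKM in oeSTUB1. VWF, KDR, TEK, ERG, CLDN5 and EMCN, 6 of the 9 endothelial markers in the table, had at most 3 fragments in every library, and ESAM, which rose, was the 1 of the 2 tested that passed. ESAM supplied most of the endothelial sum in both groups, with a mean of 0.592 FPKM in oeNC and 1.14 FPKM in oeSTUB1.

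**Figure D3:**
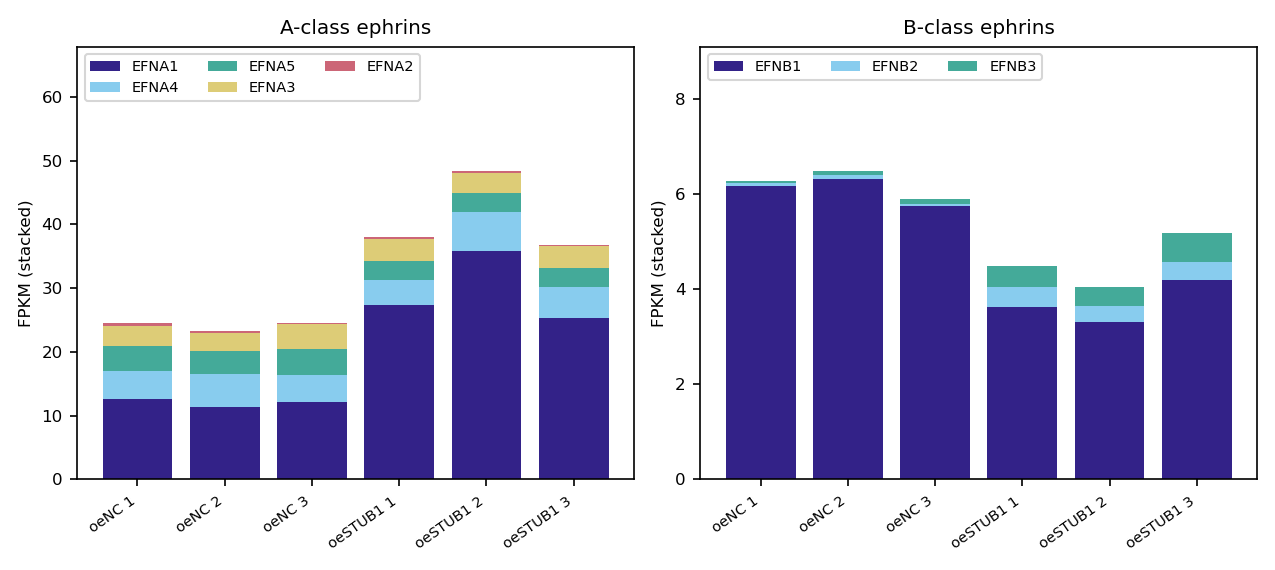
Stacked FPKM of the 5 A-class ephrins (left) and the 3 B-class ephrins (right) in each of the 6 libraries, on axes from 0. EFNA1 makes up 69.0% to 73.9% of the A-class sum in oeSTUB1 libraries, and EFNB2 and EFNB3 are visible above EFNB1 in the oeSTUB1 libraries.

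Class 3 semaphorins are secreted, and 2 of the 7, SEMA3A and SEMA3F, rose while none fell. SEMA3C (chr7:80742538-80922359, minus strand), the most abundant of them, was at 46.8, 47.6 and 47.7 FPKM in oeNC and at 57.1, 42.6 and 45.4 FPKM in oeSTUB1. The oeSTUB1 libraries lay on both sides of oeNC, and the log2 fold change was 0.02 ± 0.11 (adjusted p = 0.93), with a sign that turned under median-ratio scaling and quantile normalization. SEMA3A (chr7:83955777-84492724, minus strand), the repellent that collapses growth cones through NRP1, was at 7.22, 6.73 and 8.26 FPKM in oeNC and at 13, 9.63 and 13.6 FPKM in oeSTUB1. All oeSTUB1 libraries were higher, and the log2 fold change was 0.69 ± 0.15 (adjusted p = 0.020), a call that was lost without oeNC replicate 1 or 2 or oeSTUB1 replicate 1 or 3 (adjusted p of up to 0.088). SEMA3F (chr3:50155045-50189075, plus strand), which binds NRP2, was at 1.74, 1.82 and 1.89 FPKM in oeNC and at 4.36, 3.8 and 4.73 FPKM in oeSTUB1. The groups were well apart, by 2.37-fold in the mean and 1.2 ± 0.12 on the log2 scale (adjusted p = 0.00073).

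SEMA3B, the neighbour of SEMA3F on chromosome 3, was at 7.76, 9.21 and 8.65 FPKM in oeNC and at 6.51, 8.01 and 9.11 FPKM in oeSTUB1, with overlap (log2 fold change -0.13 ± 0.14, adjusted p = 0.58). SEMA3E, on chromosome 7 with SEMA3A and SEMA3C, had no overlap between groups, at 0.333 to 0.430 FPKM in oeNC and 0.602 to 0.933 FPKM in oeSTUB1, but missed the threshold (0.71 ± 0.21, adjusted p = 0.061). SEMA3D and SEMA3G lay at -0.15 and -0.10 on the log2 scale and did not pass. SEMA3C supplied 70.7% to 72.7% of the class 3 level in oeNC and 61.2% to 69.6% in oeSTUB1.

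Class 4 semaphorins are bound to the membrane, and SEMA4G and SEMA4C fell while none of the 6 rose. SEMA4B was at 28.7, 28.9 and 31.1 FPKM in oeNC and at 28.9, 25.9 and 31.3 FPKM in oeSTUB1. These values overlapped (log2 fold change -0.04 ± 0.090, adjusted p = 0.78). SEMA4G (chr10:100969518-100985871, plus strand) was at 14.2, 14.8 and 16.9 FPKM in oeNC and at 8.43, 6.94 and 12.5 FPKM in oeSTUB1. Its oeSTUB1 libraries were spread but all lower, and the log2 fold change was -0.76 ± 0.20 (adjusted p = 0.042). That call was lost in 6 of 16 alternatives, among them the fits without any 1 oeNC library and without oeSTUB1 replicate 1 (adjusted p of up to 0.15). MRPL43, on the opposite strand and overlapping SEMA4G, had a log2 fold change of 0.03 (adjusted p = 0.91). SEMA4C (chr2:96859716-96870757, minus strand), a ligand of PLXNB2, was at 4.86, 4.97 and 5.46 FPKM in oeNC and at 3.94, 3.46 and 3.32 FPKM in oeSTUB1. It was lower in each oeSTUB1 library (log2 fold change -0.50 ± 0.11, adjusted p = 0.020). The call was lost in 5 of 16 alternatives, among them the fits without any 1 oeNC library and without oeSTUB1 replicate 3 (adjusted p of up to 0.086). SEMA4F lay at -0.40 ± 0.11 (adjusted p = 0.058), and SEMA4D and SEMA4A at -0.19 and 0.01, none of them past the threshold. Both SEMA4C and SEMA4F lie on chromosome 2, whose tested genes had a median log2 fold change of -0.21.

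Of the class 5 to 7 semaphorins, SEMA6B, SEMA6C and SEMA7A were tested and none passed. SEMA6B, a transmembrane semaphorin that binds A-class plexins, was at 7.95, 7.81 and 6.98 FPKM in oeNC and at 5.83, 6.77 and 7.09 FPKM in oeSTUB1 (log2 fold change -0.21 ± 0.11, adjusted p = 0.24). SEMA6C was at 0.988, 0.976 and 0.836 FPKM in oeNC and at 0.497, 0.716 and 0.619 FPKM in oeSTUB1. Its groups did not overlap, and it missed the threshold (-0.55 ± 0.17, adjusted p = 0.076) but passed without oeSTUB1 replicate 2 (adjusted p = 0.025). SEMA7A, anchored by a lipid, lay at 0.54 ± 0.28 (adjusted p = 0.25).

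Plexins, the semaphorin receptors, included 2 members that fell, PLXNC1 and PLXND1, and none of 8 tested that rose. PLXND1 (chr3:129555175-129606818, minus strand), the receptor of SEMA3E, was at 27.7, 29.3 and 29.2 FPKM in oeNC and at 16.3, 12.4 and 18.6 FPKM in oeSTUB1. Every oeSTUB1 library was lower, by 1.82-fold in the mean (log2 fold change -0.88 ± 0.14, adjusted p = 0.0062). PLXNC1 (chr12:94148723-94307675, plus strand), the receptor of SEMA7A, was at 0.527, 0.654 and 0.582 FPKM in oeNC and at 0.0819, 0.0963 and 0.131 FPKM in oeSTUB1. The 201 to 249 fragments of oeNC libraries compare with 31 to 49 of oeSTUB1 libraries, a mean 5.71-fold lower, and the log2 fold change was -1.76 ± 0.20 (adjusted p = 0.0014). CEP83, which overlaps PLXNC1 on the opposite strand, had a log2 fold change of -0.04 (adjusted p = 0.90).

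PLXNB2, the receptor of several class 4 semaphorins, was at 27.8, 28.0 and 28.7 FPKM in oeNC and at 29, 23.9 and 32.0 FPKM in oeSTUB1. It was about as abundant as PLXND1 in oeNC and overlapped between the groups (log2 fold change -0.01 ± 0.11, adjusted p = 0.98), with a sign that turned when oeSTUB1 replicate 2 was left out. The log2 ratio of PLXND1 to PLXNB2 was 0.03 ± 0.036 (SD, n = 3) in oeNC and -0.85 ± 0.081 in oeSTUB1. PLXND1 supplied 39.9% to 41.2% of the summed plexin level in oeNC and 27.0% to 28.7% in oeSTUB1. The 5 other tested plexins, PLXNA1, PLXNA2, PLXNA3, PLXNB1 and PLXNB3, had log2 fold changes between -0.28 and 0.13, and none passed.

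Both neuropilins were tested. NRP1, co-receptor of SEMA3A and of vascular endothelial growth factor and the most abundant guidance gene, was at 54.1, 54.3 and 54.1 FPKM in oeNC and at 74.3, 58.6 and 76.7 FPKM in oeSTUB1. The groups did not overlap, but replicate 2 lay close to oeNC and the adjusted p was 0.072 (log2 fold change 0.36 ± 0.11). Without oeSTUB1 replicate 2 the log2 fold change was 0.48 and the adjusted p was 0.00032. NRP2 (chr2:205681990-205798133, plus strand), co-receptor of SEMA3F, was at 5.91, 5.91 and 5.76 FPKM in oeNC and at 11.9, 7.74 and 10.2 FPKM in oeSTUB1. It rose in every oeSTUB1 library, by 1.69-fold in the mean and 0.73 ± 0.15 on the log2 scale (adjusted p = 0.017), and lost the call without any 1 oeNC library and without oeSTUB1 replicate 3 (adjusted p of up to 0.070). EPHA4 and NRP2, both higher, and SEMA4C, lower, lie on chromosome 2, where the median log2 fold change of the 1031 tested genes was -0.21 and 77.3% of them were lower in oeSTUB1. SEMA4F, which did not pass (-0.40), lies there too.

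Slits and Robo receptors had 1 call between them. SLIT3 (chr5:168661733-169301129, minus strand), a secreted Robo ligand, was at 1.5, 1.66 and 1.31 FPKM in oeNC and at 4.62, 3.02 and 3.07 FPKM in oeSTUB1. All oeSTUB1 libraries were higher, by 2.40-fold in the mean, and the log2 fold change was 1.19 ± 0.18 (adjusted p = 0.0054). SLIT1 was at 0.192, 0.275 and 0.106 FPKM in oeNC and at 0.0729, 0.0341 and 0.0551 FPKM in oeSTUB1. It had no overlap between groups, but the adjusted p was 0.089 (log2 fold change -0.88 ± 0.29), and limma-voom gave 0.0497. SLIT2 was below the filter.

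ROBO1, the abundant slit receptor here, was at 20.8, 21.2 and 20.2 FPKM in oeNC and at 22.5, 12.7 and 23.4 FPKM in oeSTUB1. The low value belonged to replicate 2 (log2 fold change -0.14 ± 0.21, adjusted p = 0.71), and without it the log2 fold change was 0.14. ROBO3, known for letting commissural axons cross the midline, was at 1.41, 1.27 and 1.13 FPKM in oeNC and at 0.744, 1.04 and 0.539 FPKM in oeSTUB1. It was lower in each library but missed the threshold (-0.69 ± 0.22, adjusted p = 0.082), which it passed without replicate 2 (adjusted p = 0.0098). ROBO2 was below the filter, and ROBO4 was not analysed here.

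Among the netrins, laminin-like cues, NTN1 fell and none of the other 3 tested passed. NTN1 (chr17:9021542-9244000, plus strand), the best studied netrin of vertebrates and a ligand of the UNC5 receptors, was at 1.35, 1.76 and 1.53 FPKM in oeNC and at 0.407, 0.237 and 0.129 FPKM in oeSTUB1. There were 287 to 375 fragments per oeNC library and 27 to 86 per oeSTUB1 library. The mean was 6.01-fold lower, and the log2 fold change of -2.27 ± 0.29 (adjusted p = 0.0022) was the largest fall among the guidance genes tested. NTN4, a netrin of basement membranes, was at 14.0, 14.6 and 15.4 FPKM in oeNC and at 17.7, 15.8 and 19.3 FPKM in oeSTUB1. It was higher in all oeSTUB1 libraries without passing (0.25 ± 0.094, adjusted p = 0.12), and it passed without replicate 2 (adjusted p = 0.010). NTN4 supplied 82.5% to 84.7% of the summed netrin level in oeNC and 91.2% to 93.0% in oeSTUB1, while the share of NTN1 went from between 8.15% and 9.94% to between 0.62% and 2.1%. NTNG2 and NTN5 lay at -0.29 and 0.29 on the log2 scale and did not pass.

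Neither tested UNC5 receptor passed. UNC5D was at 1.14, 1.45 and 1.47 FPKM in oeNC and at 2.09, 1.05 and 2.28 FPKM in oeSTUB1, where replicate 2 was the one below oeNC (log2 fold change 0.33 ± 0.27, adjusted p = 0.47). Without that library the adjusted p was 0.014. UNC5B, the UNC5 receptor known from vessels, was at 0.295, 0.291 and 0.191 FPKM in oeNC and at 0.272, 0.141 and 0.218 FPKM in oeSTUB1, with overlap (-0.22 ± 0.25, adjusted p = 0.60). UNC5A and UNC5C were below the filter, and UNC5A, at 0.0952 to 0.112 FPKM in oeNC and 0.0304 to 0.0542 FPKM in oeSTUB1, was the 1 of the 16 filtered genes that passed when no filter was used.

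**Figure D4:**
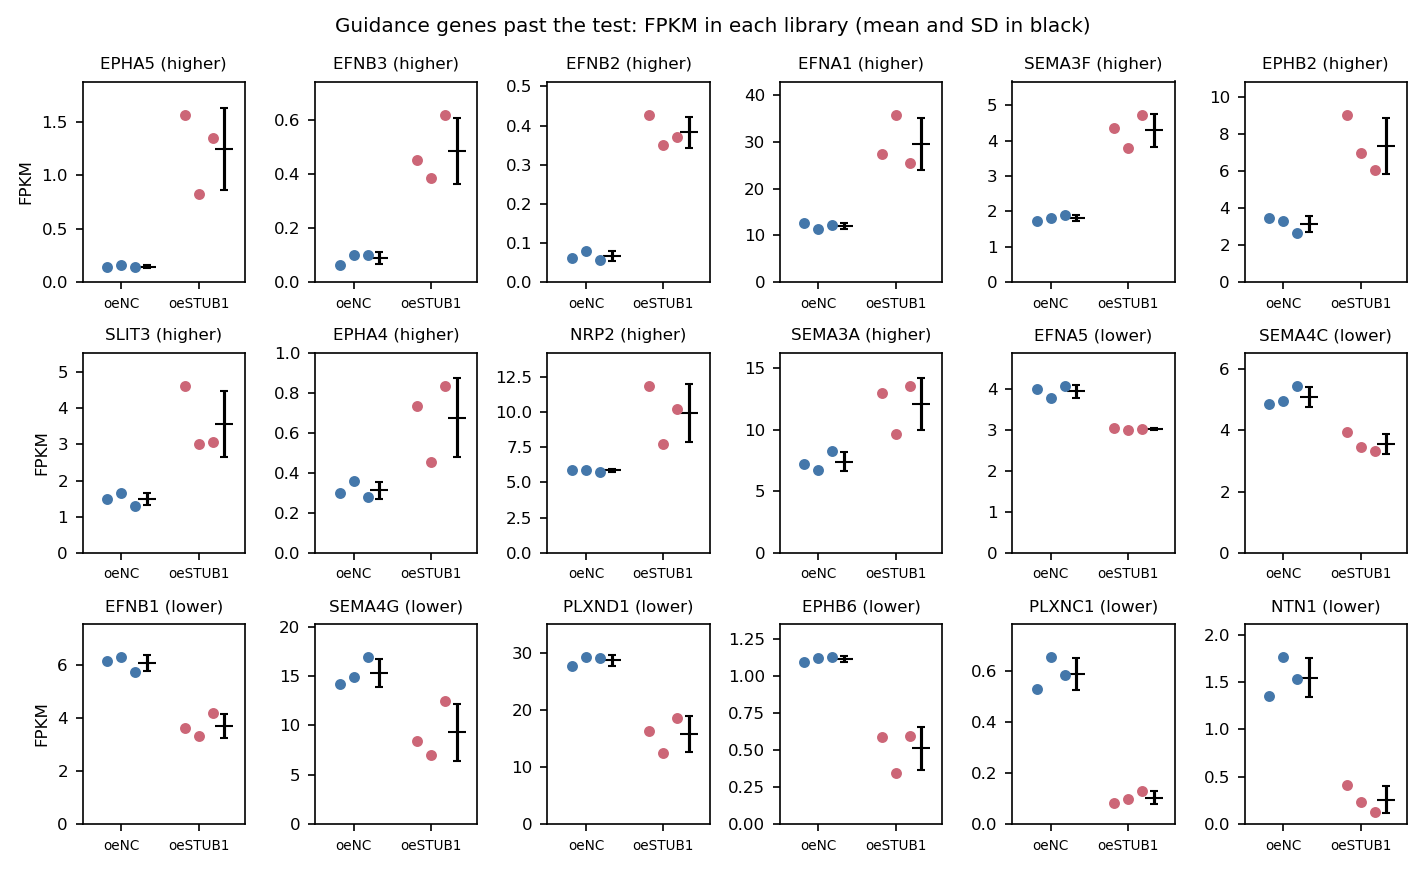
FPKM of the 18 guidance genes with an adjusted p under 0.05, in each of 3 oeNC (blue) and 3 oeSTUB1 (red) libraries, with the mean and SD in black and each axis from 0, replicates 1 to 3 running from left to right. The points of the groups do not overlap for any of the 18, and in genes such as EPHA5, EPHA4, NRP2 and SEMA3A the lowest red point is replicate 2.

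The 16 genes below the filter had at most 87 fragments in any library. EPHB1, EPHA1, EPHA8, SEMA6D, SEMA5A, ROBO2 and NTN3 had at most 3 fragments in every library, so they are at the limit of this depth. For these 7 genes a difference between groups was not detectable.

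Guidance genes are long, and oeSTUB1 replicate 2 was often the lowest of its group for them. Their median recovered length was 6633 bases, against 3694 over all tested genes. Replicate 2 was the lowest of the oeSTUB1 libraries for 34 of the 53 guidance genes (64.2%), against 42.7% of all tested genes. The median log2 difference between replicate 2 and the mean of the other oeSTUB1 libraries fell from 0.38 for genes under 1 kb to -0.42 for those over 8 kb. Of the 53 guidance genes, 17 were over 8 kb, with a median difference of -0.41. The 7 genes that did not pass with all 6 libraries and passed without this one were NRP1, NTN4, ROBO3, SEMA3E, SEMA4F, SEMA6C and UNC5D.

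**Figure D5:**
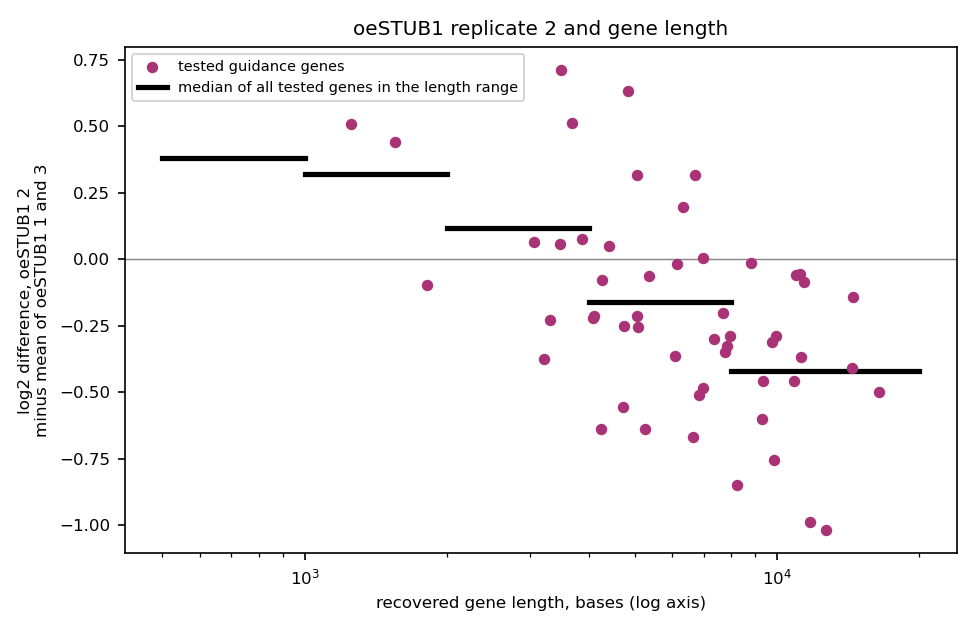
Log2 difference between oeSTUB1 replicate 2 and the mean of oeSTUB1 replicates 1 and 3 (vertical axis) against recovered gene length on a log axis, for the 53 tested guidance genes (points), with the median of all tested genes in each length range (black bars). The bars fall from 0.38 to -0.42 and most guidance genes lie below 0.

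Genes that act around these receptors, such as co-receptors, adaptors, GTPase regulators and collapsin response mediators, were counted from a separate list. Of 48 such genes in the table, 43 were tested and 4 (9.3%) passed, against 13.6% of all genes. DPYSL3, a collapsin response mediator that carries semaphorin signals to the cytoskeleton, was at 0.244, 0.273 and 0.163 FPKM in oeNC and at 3.57, 2.36 and 2.84 FPKM in oeSTUB1. It rose 12.9-fold in the mean, with no overlap (log2 fold change 3.21 ± 0.21, adjusted p = 0.00015). CRMP1, of the same family, was at 0.729, 0.775 and 0.926 FPKM in oeNC and at 1.31, 1.52 and 1.15 FPKM in oeSTUB1 (0.65 ± 0.16, adjusted p = 0.035), a call lost in 6 of 16 alternatives, among them the fits without any 1 oeNC library and without oeSTUB1 replicate 1 (adjusted p of up to 0.14).

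DSCAML1, an adhesion molecule related to the netrin receptor DSCAM, was at 0.682, 0.712 and 0.658 FPKM in oeNC and at 0.117, 0.0733 and 0.210 FPKM in oeSTUB1 (log2 fold change -1.79 ± 0.25, adjusted p = 0.0032). VAV3, an exchange factor for small GTPases downstream of Eph receptors, was at 5.03, 5.06 and 5.18 FPKM in oeNC and at 2.16, 1.85 and 2.19 FPKM in oeSTUB1 (-1.26 ± 0.11, adjusted p = 0.00038). Both fell in every oeSTUB1 library. Without oeSTUB1 replicate 2, 13 of the 43 genes (30.2%) passed, against 26.8% of all genes. Of the 13, 9 were higher and 4 lower, and they included DPYSL3, CRMP1, DSCAML1 and VAV3.

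Because many guidance genes are known from neurons, vessels and stroma, marker lists of those cells were read beside them. Neuronal markers summed to between 100.4 and 107 FPKM in oeNC and between 110.3 and 138 FPKM in oeSTUB1, and of 5 tested TUBB3 rose (0.47 ± 0.12, adjusted p = 0.035) and NEFL fell (-1.25 ± 0.080, adjusted p = 0.00014). STMN2, GAP43, ELAVL3 and ELAVL4, 4 of the 10 neuronal markers, had at most 3 fragments in every library. Fibroblast markers summed to 1.31 to 2.37 FPKM in oeNC and 2.18 to 4.08 FPKM in oeSTUB1, neither of the 2 tested passed, and COL1A2 and DCN had at most 3 fragments in every library. Leukocyte markers summed to 33.0 to 35.5 FPKM in oeNC and 26.6 to 26.9 FPKM in oeSTUB1, CD68 being the 1 of 5 tested that passed, lower, and MS4A1 had at most 3 fragments in every library. Most of the neuronal sum came from TUBB3 (mean 71.6 FPKM in oeNC, 100 FPKM in oeSTUB1). The same held for COL1A1 in the fibroblast sum (1.62 and 2.81 FPKM) and CD68 in the leukocyte sum (27.2 and 19.2 FPKM). Biliary epithelial markers summed to 7432 to 8008 FPKM in oeNC and 4734 to 6273 FPKM in oeSTUB1. Among them KRT19 rose and KRT8, KRT18, EPCAM and CDH1 fell, CDH1 from between 60.8 and 65.0 FPKM to between 22.3 and 37.3 FPKM (log2 fold change -1.09 ± 0.17, adjusted p = 0.0055). The part of these marker changes in the guidance gene results was not tested.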

How the data were processed

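The authors deposited 1 table of FPKM values for 23569 genes in 6 libraries. The submitters' processing notes list fastp 0.20.1, HISAT2 2.1.0, HTSeq 0.11.2, R 3.2.0 and DESeq2 1.22.2, and the build GRCh38.p13. Annotation and counting strand are not given in the sources used here. Whole fragments were recovered from the FPKM steps of all 23569 genes (largest difference on recomputing 4.93e-06), up to a shared factor per gene. Depth was 33106564 to 36744521 fragments per library.

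Groups came from the sample labels. Expression was compared with limma 3.58.1 (R 4.3.3, lmFit, eBayes with trend, two-sided) on log2(FPKM + 0.1), mean FPKM of at least 0.1, with Benjamini-Hochberg adjustment. A gene was called at an adjusted p-value under 0.05. The pseudocount understates changes of low genes. On simulated data, 200 of 200 genes changed 4-fold were called with the right sign, and 15 unchanged genes of 15348 tested genes. The simulation gave every gene the same dispersion and had no outlying library or trend with length. Its changed genes were drawn above a level higher than the filter. It therefore checks the procedure and does not measure power or false calls in the real libraries.

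The members and lists were chosen with earlier results of these data known. Values per library are given for STUB1, called members, the 2 most abundant members of each class, and called genes of the list of genes acting around the receptors. SEMA3B is given per library outside these rules, as the neighbour of SEMA3F. Other genes are marked. Ratios of gene pairs were chosen after values were seen and are descriptions. Positions are from GENCODE release 29 and promoters from RefSeq. Replicate numbers were not used as a block in the main comparison. The alternatives were other pseudocounts and filters, median-ratio scaling, quantile normalization, no trend, the replicate block, leaving out each library, and limma-voom on recovered fragments. A lowess correction for gene length was added after the data were seen. Some genes of the marker lists are not reported here.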

Additional observations from a re-analysis of the deposited data

How the results depend on the processing

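Of the 18 calls, 11 (EPHB2, EPHA5, EFNA1, EFNB1, EFNB2, EFNB3, SEMA3F, PLXND1, PLXNC1, SLIT3 and NTN1) held under every alternative in which the gene was tested. With a pseudocount of 1, guidance genes past the fold threshold numbered 2 higher and 1 lower, all genes 120 higher and 120 lower, and genes around the receptors 0 lower, since the pseudocount shrinks changes of low genes. With a filter at a mean of 1 FPKM, which tests fewer genes, 6 guidance genes were higher and 5 lower, and over all genes 794 and 718. Of these, 4 and 0 guidance genes passed the fold threshold, and 202 and 182 of all genes. Of the genes around the receptors 1 was lower, with and without the fold. The numbers tested at this filter are not given here, so these counts do not set guidance genes against the rest. After correction for gene length, 12 guidance genes were higher and 7 lower (35.8%), with NRP1 (0.38, adjusted p = 0.0041) and SEMA3E gained and EFNA5 lost. All genes gave 1675 higher and 1647 lower (21.6%), and genes around the receptors 5 and 5. The cause of these counts was not tested.

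Leaving out each library in turn gave 7 to 14 guidance genes higher and 4 to 11 lower, or 6 to 8 and 2 to 4 past the fold threshold, with a median log2 fold change of -0.08 to -0.03. The highest counts, 14 and 11, came without oeSTUB1 replicate 2, and 4 lower came without each oeNC library. All genes gave 477 to 2274 higher and 456 to 1838 lower, and 331 to 448 and 285 to 406 past the fold threshold. Genes around the receptors gave 1 to 9 higher and 2 to 4 lower, and 1 and 2 past the fold threshold in every such fit.

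Signs turned for genes that were not called: EPHA2 to -0.0022 (median-ratio scaling), -0.054 (quantile normalization) and -0.044, -0.070 and -0.034 (without oeNC replicate 1, oeNC replicate 2 and oeSTUB1 replicate 1; range over libraries left out -0.070 to 0.17); SEMA3C to -0.0030, -0.045 and -0.11 (both scalings, and without oeSTUB1 replicate 1); PLXNB2 to 0.0078, 0.11 and 0.047 (without oeNC replicate 3, without oeSTUB1 replicate 2, and length correction; range -0.10 to 0.11); SEMA4B to 0.027 (range -0.11 to 0.027) and ROBO1 to 0.14 (range -0.29 to 0.14) without oeSTUB1 replicate 2.

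Deviations of same-numbered replicates from their group means had correlations of -0.049, -0.052 and 0.062. Those of differently numbered replicates ranged from -0.097 to 0.11. With 3 libraries per group and oeSTUB1 replicate 2 apart, this cannot settle whether the numbers pair the samples. With the replicate block EPHA4, EFNA5, SEMA4C and CRMP1 lost their calls. Under it 9 guidance genes were higher and 6 lower, 7 and 3 past the fold threshold. All genes gave 741 higher and 747 lower, 405 and 353 past the fold threshold. limma-voom called 22 guidance genes, all 18 and SEMA3E, SEMA4F, SEMA6C and SLIT1. The share of all genes that it called is not given here, so this count does not set guidance genes against the rest. Called values that moved over 1.5-fold did so with a pseudocount of 1, and for EFNB2 also with a pseudocount of 0.01 (2.38) and limma-voom (2.53).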
